A study of Homo sapiens with 4 samples.

Results

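The genes described here are 10 genes of the integrated stress response and the unfolded protein response, ATF4, DDIT3, TRIB3, ASNS, CHAC1, XBP1, ATF3, SESN2, DDIT4 and PPP1R15A. They were chosen by name, with earlier results of these data known. All 10 of 10 were found among the 24934 gene rows of the deposited table, each at more than 1 FPKM in all 4 libraries. FPKM counts fragments per kilobase of a transcript relative to all mapped fragments in that library, so that levels of different genes can be compared per length.

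RNA was sequenced from HEK-293, an established human embryonic kidney cell line, 48 h after lipid transfection with 10 nM of siRNA. One library was made with si4 and 1 with si5, both directed to ZSCAN5A, 1 with si1, directed to ZSCAN5B, and 1 with a scrambled control siRNA. All 4 libraries, the control included, therefore come from cells that received a transfection reagent and an RNA duplex, and untransfected cells were not analysed here. Each siRNA has 1 library, so no value can be checked against a replicate. The spread within a group can be seen only between si4 and si5, which share a target gene but not a sequence. In bulk samples, a change in the share of cells of one kind and a change in RNA per cell cannot be told apart.

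The integrated stress response starts when 1 of several kinases phosphorylates the translation initiation factor eIF2, which lowers general protein synthesis and favours translation of the transcription factor ATF4. ATF4 and its partner CHOP, the product of DDIT3, then raise genes for amino acid supply, tRNA charging and feedback. The unfolded protein response of the endoplasmic reticulum (ER) uses one of these kinases together with the sensors IRE1 and ATF6. IRE1 splices the XBP1 mRNA, and gene-level FPKM does not separate the spliced from the unspliced form, nor does any mRNA level report the translation of ATF4.

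The 3 siRNA target sequences are shown because the libraries of the 2 ZSCAN5A siRNAs differed for several of these genes. On GRCh37, si4 matches chr19:56733332-56733352 and si5 matches chr19:56733307-56733327, both on the minus strand in coding sequence of exon 6 of 6 of ZSCAN5A. The si1 sequence matches chr19:56701591-56701611 on the minus strand, in coding sequence of exon 5 of 5 of ZSCAN5B.
si4: cgagaagaggtttacgtgtaa
si5: aagctagtcatccacaagaga
si1: acgtgtgcaataaatcattta

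ZSCAN5A was at 0.730 FPKM with si4 and 0.713 FPKM with si5, against 2.42 FPKM in the control and 2.53 FPKM with si1. ZSCAN5B was at 0.0331 FPKM with si4, 0.0663 FPKM with si5, 0.0948 FPKM with si1 and 0.0903 FPKM in the control, and the si1 library is called below the library labelled ZSCAN5B knockdown because its own value was not lower. From the steps between low FPKM values and annotated transcript lengths, the libraries held an estimated 58700000 (si4), 83000000 (si5), 54600000 (si1) and 53800000 (control) fragments. The si5 estimate lies above the range of reads per sample that the paper states, and the others lie below it. If the values were scaled between libraries before deposit, the steps give the scaled library size and not the fragments sequenced. The intervals given below are exact 95% Clopper-Pearson intervals of ratios of estimated fragments and cover counting error only. For ZSCAN5B, at an estimated 9.4 fragments with si1 and 8.8 in the control, this interval ran from 0.346 to 2.80 times the control. Of 5 markers of HEK-293, VIM, NEFL, NEFM and LHX1 were above 3 FPKM in every library, and PAX2 was at 1.16 FPKM in the control and between 0.584 and 0.615 FPKM in the siRNA libraries. Of 7 markers of other cell types, only COL1A1 reached 1 FPKM in any library.

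The promoters of the 10 genes were searched, in 300-base windows of RefSeq (250 bases before to 50 bases after each start, GRCh38.p14) and on both strands, for elements known from this response. The windows of CHAC1 and ASNS are printed because these 2 genes differed most between libraries. The capitals mark the only match in each to TGATGNAA, the core of the C/EBP-ATF composite element that ATF4 binds with its partners. CHAC1 lies on the plus strand, at chr15:40953221-40953470, and holds the element on the opposite strand from 209 to 202 bases before the start. ASNS lies on the minus strand, at chr7:97872409-97872658, and holds it from 68 to 61 bases before the start. These 2 windows stop at the start site.
CHAC1: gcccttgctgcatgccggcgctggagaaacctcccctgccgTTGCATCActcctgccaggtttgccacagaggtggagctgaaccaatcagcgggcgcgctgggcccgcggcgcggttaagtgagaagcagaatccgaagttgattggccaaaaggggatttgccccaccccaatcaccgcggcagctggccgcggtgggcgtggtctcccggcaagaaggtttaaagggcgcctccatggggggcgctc
ASNS: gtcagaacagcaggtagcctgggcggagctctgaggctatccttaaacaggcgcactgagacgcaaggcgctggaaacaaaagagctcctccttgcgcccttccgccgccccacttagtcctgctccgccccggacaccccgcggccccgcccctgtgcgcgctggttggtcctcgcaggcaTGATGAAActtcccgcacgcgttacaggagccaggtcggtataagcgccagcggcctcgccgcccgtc

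The same letters stood in a window of ATF3, so that 3 of the 17 windows of the 10 genes held a match, beside 3.62% of all 35116 promoter windows. XBP1 held the only match among the 10 to the ER stress response element ERSE (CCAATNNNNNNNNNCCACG), which 0.0769% of all windows held. PPP1R15A held the only match to the cyclic AMP response element TGACGTCA, which 1.85% of windows held. None of the 10 held TGACGTGG, the unfolded protein response element, found in 0.729% of windows. A match describes the letters in the window and not the binding of a factor. In the lines below, 30 bases are given around each match, with the match in capitals, on the strand of the gene, at chr1:212565205-212565234 (ATF3), chr22:28800597-28800626 (XBP1) and chr19:48872352-48872381 (PPP1R15A) of GRCh38.p14.
ATF3: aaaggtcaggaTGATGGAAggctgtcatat
XBP1: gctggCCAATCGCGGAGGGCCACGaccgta
PPP1R15A: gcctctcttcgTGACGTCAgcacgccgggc

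On hg19, the transcription factor genes were listed as ATF4 at chr22:39916569-39918691, DDIT3 at chr12:57910371-57914300, ATF3 at chr1:212738676-212794119 and XBP1 at chr22:29190548-29196560. The other genes were listed as TRIB3 at chr20:361308-378203, ASNS at chr7:97481429-97501854, CHAC1 at chr15:41245636-41248717, SESN2 at chr1:28585963-28609002, DDIT4 at chr10:74033677-74035797 and PPP1R15A at chr19:49375649-49379319. These spans cover whole genes, and the estimated fragments behind a member's value ran from 1042 for CHAC1 with si1 to 71958 for ATF4 with si5.

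No member moved past 1.5-fold against the control with either target. Most members, among them ATF4, DDIT3, ASNS and CHAC1, stood highest in the si5 library and lowest in the library labelled ZSCAN5B knockdown. As a ratio of the highest to the lowest library, the range was widest for CHAC1 (1.67-fold, 12.5 to 21.0 FPKM) and narrowest for PPP1R15A (1.07-fold, 19.6 to 21.0 FPKM). In the control, the levels per length ran from 570.2 FPKM for ATF4 to 15.9 FPKM for CHAC1.

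**Figure D1:**
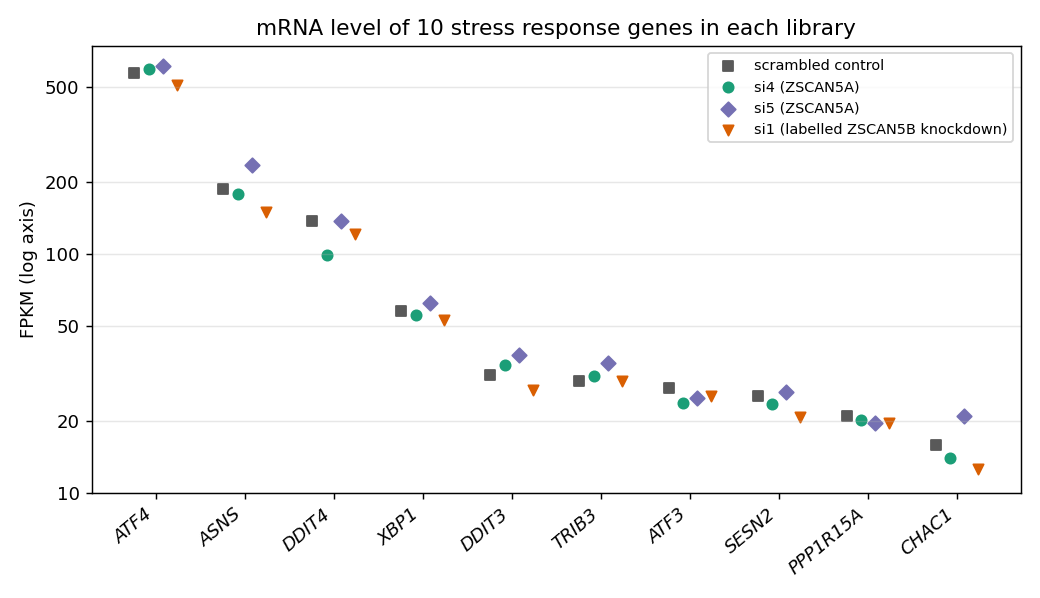
FPKM (log axis) of the 10 genes in the scrambled control, si4, si5 and si1 libraries, 1 point per library, with genes in order of the control level. The si5 point is the highest of the 4 for 8 of the 10 genes, and ATF4 stands above all others in every library.

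ATF4, the transcription factor at the centre of the response, was at 592 FPKM with si4, 611 FPKM with si5, 508 FPKM with si1 and 570.2 FPKM in the control. Both ZSCAN5A siRNA libraries stood above the control and the library labelled ZSCAN5B knockdown stood below it. The mean of si4 and si5 was 1.05-fold the control (log2 ratio 0.08, SD 0.03 between the 2 siRNAs), and si1 was 0.892-fold (0.880 to 0.904). The first difference was -0.01 on the log2 scale once genes of similar transcript length and GC content were taken as the reference.

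DDIT3 encodes CHOP, a partner and target of ATF4. It was at 34.1 FPKM with si4, 37.6 FPKM with si5, 26.9 FPKM with si1 and 31.0 FPKM in the control, the same order of libraries as ATF4. The mean of si4 and si5 was 1.16-fold the control (log2 ratio 0.21, SD 0.10), which became 0.03 under the same correction for length and GC content. The si1 library was at 0.868-fold (0.805 to 0.935).

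ATF3, a bZIP factor induced downstream of ATF4, did not share this order. It was at 23.7 FPKM with si4, 24.9 FPKM with si5, 25.4 FPKM with si1 and 27.4 FPKM in the control, so all 3 siRNA libraries were below the control. XBP1, the transcription factor of the IRE1 branch, was at 55.6 FPKM with si4, 62.5 FPKM with si5, 52.6 FPKM with si1 and 57.7 FPKM in the control. Its highest library, si5, was 1.19-fold its lowest, si1.

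ASNS, asparagine synthetase, was at 178 FPKM with si4, 235 FPKM with si5, 149 FPKM with si1 and 187 FPKM in the control. CHAC1, an enzyme that degrades glutathione, was at 14.03 FPKM with si4, 21.0 FPKM with si5, 12.5 FPKM with si1 and 15.9 FPKM in the control. Both genes had the order si5, control, si4, si1, so that the 2 ZSCAN5A siRNAs lay on opposite sides of the control. For ASNS, si5 was 1.26-fold the control (1.24 to 1.28) and si4 0.952-fold (0.936 to 0.969). For CHAC1, si5 was 1.32-fold (1.24 to 1.41) and si4 0.882-fold (0.816 to 0.955). The means of the 2 siRNAs, 1.11-fold and 1.10-fold the control, had SDs of 0.28 and 0.41 between siRNAs on the log2 scale, larger than the log2 ratios themselves, which were 0.14 for both genes.

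TRIB3, a pseudokinase that restrains ATF4 and CHOP activity, was at 30.8 FPKM with si4, 35.1 FPKM with si5, 29.3 FPKM with si1 and 29.2 FPKM in the control. Its si1 and control values could not be told apart within counting error (1.00-fold, 0.958 to 1.05). PPP1R15A encodes GADD34, which directs the phosphatase that removes the phosphate from eIF2. It was at 20.1 FPKM with si4, 19.6 FPKM with si5, 19.7 FPKM with si1 and 21.0 FPKM in the control, and the counting interval included 1 for 4 of its 6 pairs of libraries.

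SESN2 and DDIT4 encode Sestrin2 and REDD1, which hold back the growth kinase complex mTORC1. SESN2 was at 23.6 FPKM with si4, 26.5 FPKM with si5, 20.7 FPKM with si1 and 25.3 FPKM in the control, again highest with si5 and lowest with si1. DDIT4 was at 99.1 FPKM with si4, 137 FPKM with si5, 121 FPKM with si1 and 137 FPKM in the control. DDIT4 was the only member lowest with si4 other than ATF3, and its si4 value was 0.723-fold the control (0.704 to 0.742) while its si5 value was 1.00-fold (0.981 to 1.03).

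**Figure D2:**
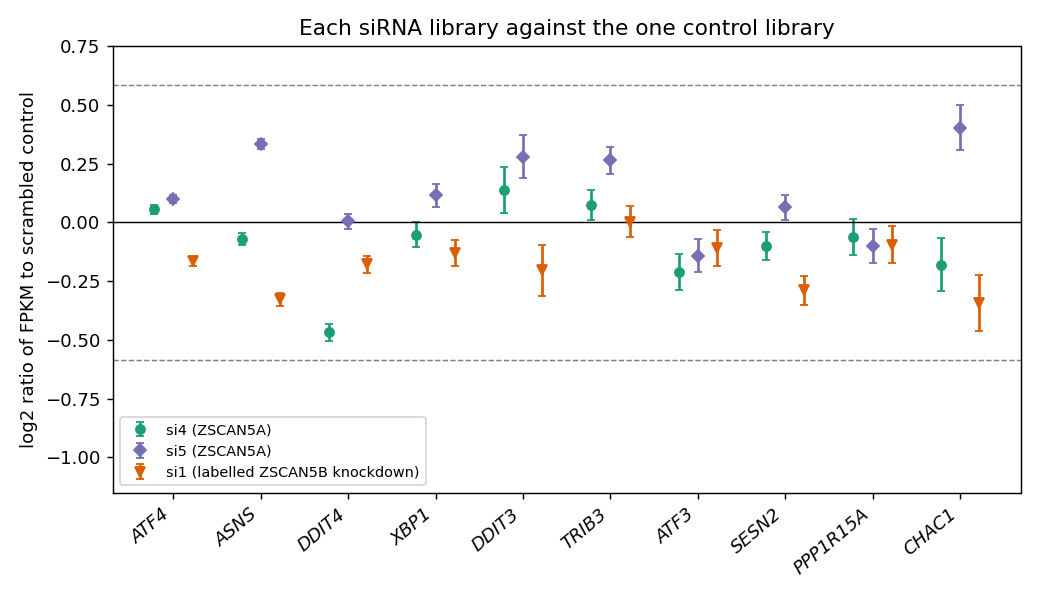
log2 ratio of FPKM to the scrambled control for each gene in the si4, si5 and si1 libraries, with 95% counting intervals as bars and dashed lines at 1.5-fold in both directions. All points lie inside the dashed lines. The largest difference from the control is that of DDIT4 with si4, at -0.47.

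Each siRNA target was compared with the control. In the ZSCAN5A comparison, the averaged si4 and si5 values were past 1.5-fold in 0 of 10 members in either direction, where 0.677% of 12993 genes were higher and 3.11% lower by that much. The members' median log2 ratio was 0.06, and the median of all genes was -0.02. Of the members, 6 were above and 4 below the control, where 46.7% of all genes were above. With si5 alone the median was 0.11 and with si4 alone it was -0.07, so its direction depended on the siRNA. For the library labelled ZSCAN5B knockdown, 0 of 10 members were past 1.5-fold, where 0.844% of 12921 genes were higher and 3.17% lower. Of the 10 members, 9 were below the control there (51.5% of all genes were), with a median log2 ratio of -0.17 (median of all genes -0.01).

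Between si5 and si4, which target the same gene, 9 of 10 members were higher with si5, where 45.4% of all genes were. None was past 1.5-fold, where 1.56% of 12800 genes were higher and 0.969% lower with si5. CHAC1 lay at the limit (1.498-fold, 1.40 to 1.60), followed by DDIT4 (1.39-fold) and ASNS (1.32-fold). CHAC1 was past it, as 1 of 10, under median-ratio scaling, upper-quartile scaling and the correction for length and GC content. Under median-ratio scaling, 231 of all genes were higher and 113 lower, against 200 and 124 as deposited. These counts were 297 and 102 under upper-quartile scaling, and 220 and 104 after the correction. The members' median log2 ratio was 0.17, and that of all genes was -0.02.

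Since every comparison with a control rests on the same control library, the si5 library was also set directly against the library labelled ZSCAN5B knockdown, a pair chosen after the values were seen. There 8 of 10 members were higher with si5, where 44.4% of all genes were. Of the members, 2, CHAC1 (1.67-fold, 1.56 to 1.801) and ASNS (1.58-fold, 1.55 to 1.61), were past 1.5-fold. Of 12814 genes, 0.804% were higher and 0.827% lower by more than 1.5-fold in this pair, 103 and 106 genes, which became 113 and 76 under median-ratio and 136 and 63 under upper-quartile scaling. DDIT3 followed at 1.40-fold and SESN2 at 1.28-fold, while ATF3 and PPP1R15A had intervals that included 1. The median log2 ratio was 0.26 for the members and -0.02 for all genes. This compares 2 libraries and not 2 conditions.

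**Figure D3:**
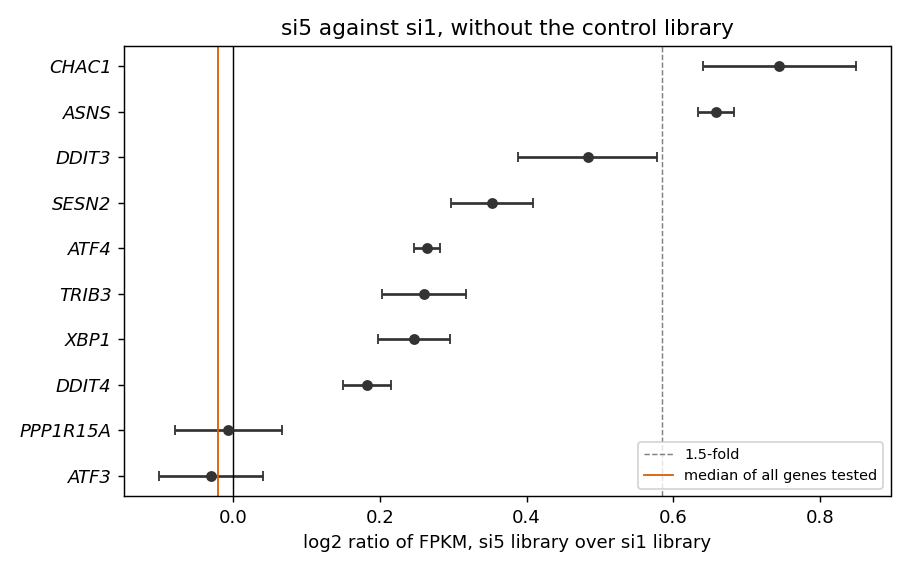
log2 ratio of FPKM in the si5 library over the si1 library (labelled ZSCAN5B knockdown) for the 10 genes, with 95% counting intervals. CHAC1 and ASNS lie to the right of the dashed line at 1.5-fold, and ATF3 and PPP1R15A overlap 0.

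Across the 4 libraries, 8 of 10 members were highest with si5, where 16.1% of 12983 genes were. Of the 10 members, 6 were lowest with si1, where 20% of genes were. The same 6 (ATF4, DDIT3, ASNS, CHAC1, XBP1 and SESN2) were both highest with si5 and lowest with si1, where 4.48% of genes were. This order was picked after the members' values were seen, so the shares of all genes describe it and do not test it. The si5 library was also the deepest by the estimate above, at 1.54 times the estimated fragments of the control, and the part of depth in this order was not tested. The count highest with si5 was 8 under median-ratio and upper-quartile scaling and 7 after the correction for length and GC content, where 20.4%, 31.5% and 20.1% of all genes were highest with si5.

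The genes whose pattern over the 3 ratios to control lay nearest to that of CHAC1, among 12708 genes with a mean of at least 1 FPKM, were ASNS, the readthrough locus TMED7-TICAM2 and AJUBA. Their Euclidean distances from CHAC1 on the log2 scale were 0.13, 0.16 and 0.16. ASNS, the nearest, is itself one of the 10 genes. AJUBA was at 4.84 FPKM with si4, 7.87 FPKM with si5, 5.02 FPKM with si1 and 5.81 FPKM in the control.

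The aminoacyl-tRNA synthetases that ATF4 controls, together with the tRNA exporter XPOT, showed the same library on top. All 13 of 13 were highest with si5, where 16.1% of all genes were (31.5% under upper-quartile scaling). The order was picked after the members' values were seen, so these shares describe it and do not test it. The median log2 ratio of the 13 to the control was 0.25 with si5, 0.06 with si4 and 0.04 with si1. None was past 1.5-fold against the control, where 3.79% (ZSCAN5A) and 4.01% (si1) of all genes were. TARS, for threonine, had the highest control level and was at 141 FPKM with si4, 159 FPKM with si5, 155 FPKM with si1 and 129 FPKM in the control. WARS, for tryptophan, differed most in the ZSCAN5A comparison (1.27-fold), and AARS, for alanine, was the only one below the control there (0.964-fold). AARS was at 74.7 FPKM with si4, 88.6 FPKM with si5, 76.3 FPKM with si1 and 84.7 FPKM in the control.

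Of 19 amino acid supply genes, 13 were highest with si5, where 16.1% of all genes were. Under upper-quartile scaling 15 were, where 31.5% of all genes were. These shares likewise describe the order and do not test it. The median log2 ratio of the 19 to the control was 0.12 with si5, -0.07 with si4 and -0.14 with si1. PHGDH, the first enzyme of serine synthesis, was at 196 FPKM with si4, 240.1 FPKM with si5, 170 FPKM with si1 and 217 FPKM in the control. None was past 1.5-fold in the ZSCAN5A comparison, where 3.79% of all genes were. In the library labelled ZSCAN5B knockdown, 2 were lower by more than 1.5-fold, where 3.17% of all genes were. SLC7A11, the cystine transporter, was at 3.99 FPKM there, 3.53 FPKM with si4, 7.66 FPKM with si5 and 6.28 FPKM in the control. SLC6A9, a glycine transporter, was at 6.97 FPKM there, 6.61 FPKM with si4, 10.3 FPKM with si5 and 10.9 FPKM in the control. Both therefore stood low with si4 as well as with si1. The largest log2 ratios of the ZSCAN5A comparison were 0.21 for PSPH and -0.37 for SLC6A9.

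Among 18 other targets of ATF4 and CHOP, 16 could be compared for ZSCAN5A and 15 for si1, and 10 and 13 of these were below the control, where 53.3% and 51.5% of all genes were. BCL2L11, which encodes the death-promoting protein BIM, was at 11.2 FPKM with si4, 9.99 FPKM with si5, 10.7 FPKM with si1 and 20.1 FPKM in the control. It was the only one past 1.5-fold in the ZSCAN5A comparison (0.528-fold), where 3.11% of all genes were lower by that much. With si1 it was at 0.532-fold. In the si1 library VLDLR (0.658-fold) and WIPI1 (0.641-fold) were also past the limit, where 3.17% of all genes were lower by that much. The most abundant in the control was PMAIP1, which encodes NOXA, at 341 FPKM, with 411 FPKM with si4, 307 FPKM with si5 and 403 FPKM with si1. EIF4EBP1 had the largest ratio above the control in the ZSCAN5A comparison, at 1.13-fold.

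**Figure D4:**
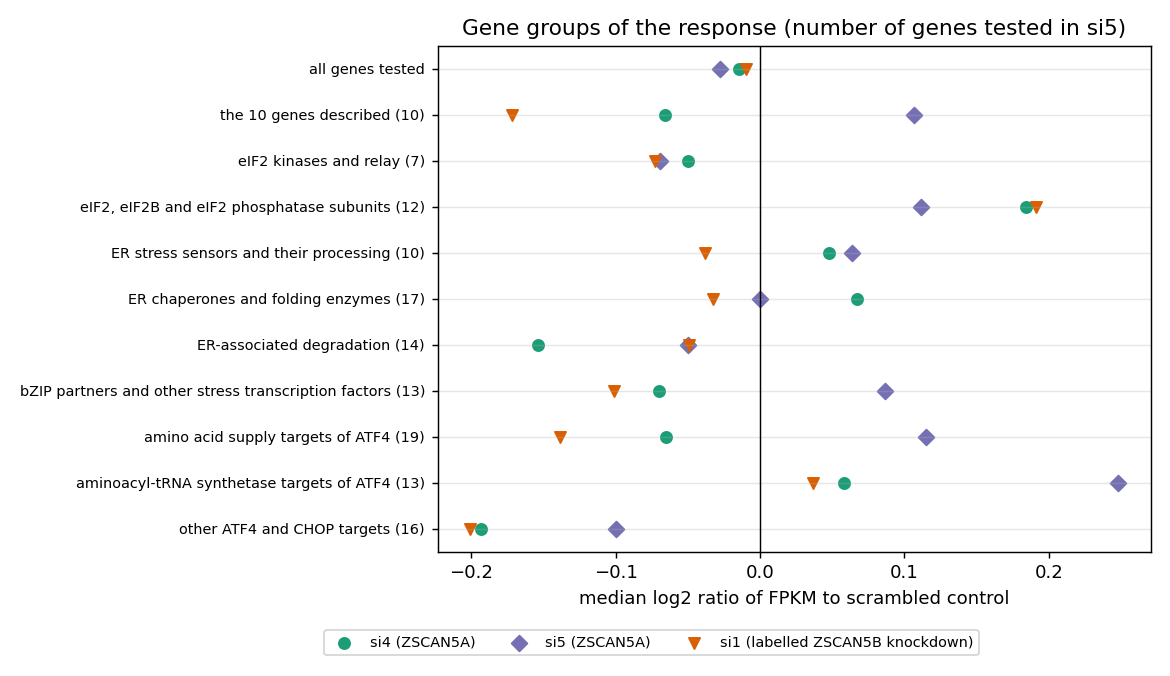
Median log2 ratio of FPKM to the scrambled control for all genes tested and for gene groups of the response, in the si4, si5 and si1 libraries, with the number of genes tested in brackets. In si5, the tRNA charging group lies furthest to the right, at 0.25. The amino acid supply group, at 0.12, lies beside the eIF2 and phosphatase subunits and the 10 genes, both at 0.11. The eIF2 group is at 0.18 in si4 and 0.19 in si1. The ER chaperones stay near 0 in si5.

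Of 7 upstream kinases and relay proteins, 0 were highest with si5, a count too small to set apart from the 16.1% of all genes. EIF2AK1, which encodes the heme-regulated kinase HRI, had the highest control level, at 54.7 FPKM, with 52.8 to 53.9 FPKM in the other libraries. EIF2AK3, which encodes PERK, was at 1.08-fold and EIF2AK2, which encodes PKR, at 0.842-fold the control in the ZSCAN5A comparison. Of 12 subunits of eIF2, its exchange factor eIF2B and its phosphatases, 10 were above the control for ZSCAN5A and 10 for si1, where 46.7% and 48.5% of all genes were, and none was past 1.5-fold in either, where 3.79% and 4.01% of all genes were. EIF2S3 was the most abundant, at 173 FPKM in the control, and EIF2B2 was at 1.24-fold for ZSCAN5A. PPP1R15B, the constitutive counterpart of PPP1R15A, was at 11.7 FPKM with si4, 17.7 FPKM with si5, 15.0 FPKM with si1 and 19.9 FPKM in the control.

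Of 10 ER stress sensors and their processing factors, 1 was past 1.5-fold for ZSCAN5A and 1 for si1. The shares of all genes past it were 3.79% and 4.01%. ERN1, which encodes IRE1, was at 0.758 FPKM with si4, 0.978 FPKM with si5, 1.05 FPKM with si1 and 1.33 FPKM in the control (0.654-fold for ZSCAN5A). ATF6B was at 26.4 FPKM with si4, 26.5 FPKM with si5, 21.98 FPKM with si1 and 34.8 FPKM in the control (0.631-fold for si1). RTCB, the RNA ligase that joins XBP1 exons and is listed as C22orf28, was the most abundant and stood highest above the control, at 1.32-fold for ZSCAN5A and 1.40-fold for si1.

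Of 17 ER chaperones and folding enzymes, none was past 1.5-fold for either target, where 3.79% (ZSCAN5A) and 4.01% (si1) of all genes were. For ZSCAN5A, 8 of the 17 were above and 9 below the control, where 46.7% of all genes were above. HSPA5, the chaperone BiP that is widely used as a readout of ER stress and is named here outside the rule for gene names, was at 97.3 FPKM with si4, 96.2 FPKM with si5, 93.7 FPKM with si1 and 86.8 FPKM in the control. HSP90B1 was the most abundant (342 FPKM in the control). PDIA4 was at 1.39-fold and DNAJB9, a target of spliced XBP1, at 0.824-fold for ZSCAN5A. Of 14 genes of ER-associated degradation, none was past 1.5-fold for either target, beside the same 3.79% and 4.01% of all genes. VCP, the segregase that extracts proteins from the ER, was the most abundant (94.1 FPKM) and at 1.08-fold for ZSCAN5A, and SYVN1, the ubiquitin ligase HRD1, was at 0.704-fold. DERL2, named outside the rule for gene names, was at 0.611-fold the control with si4 and 1.02-fold with si5.

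Among 13 bZIP partners and other stress transcription factors, none was past 1.5-fold for either target, where 3.79% (ZSCAN5A) and 4.01% (si1) of all genes were. CEBPG, a partner of ATF4, was the most abundant and was at 94.8 FPKM with si4, 107 FPKM with si5, 88.9 FPKM with si1 and 89.7 FPKM in the control. BATF3 was at 1.36-fold and NFE2L1 at 0.833-fold for ZSCAN5A. NUPR1, a stress factor named here after its values were seen, was at 8.04 FPKM with si4, 9.36 FPKM with si5, 4.98 FPKM with si1 and 7.37 FPKM in the control, the same order of libraries as ATF4 and DDIT3. Most of the list did not share it. Of the 13, 4 were highest with si5 and lowest with si1, where 4.48% of all genes were. The highest library was si5 for 6 of the 13, si4 for 3, the control for 3 and si1 for 1. Of 6 paralogs of the members, none was past 1.5-fold in either comparison, beside the same 3.79% and 4.01% of all genes. TRIB2 had the highest control level (28.5 FPKM), and DDIT4L and TRIB1 had the largest ratios for ZSCAN5A, at 1.10-fold and 0.773-fold. TRIB1 was at 0.619-fold the control with si4 and 0.927-fold with si5.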

How the data were processed

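HEK-293 cells were transfected with siRNA and 4 poly(A) RNA libraries were sequenced, 1 per siRNA. The labels and the paper's methods name different stranded mRNA kits. The submitters' processing notes name CASAVA 1.8.2, Trimmomatic 0.30, TopHat2 2.1.0 and Cufflinks 2.2.1 with hg19. The authors deposited 1 table of FPKM values per gene, with 24934 rows, 1 column per library and 0 other columns of per-sample values. The values were used as deposited, without further scaling.

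Ratios were taken without a pseudocount where at least 1 library of a comparison reached 1 FPKM and neither side was 0. Past the limit means more than 1.5-fold. The averaged si4 and si5 values (ZSCAN5A) and the si1 value (ZSCAN5B) were each divided by the control value. There was 1 control library, so no test was made in the main setting, and members are read beside the share of all genes. Relative depth came from the commonest ratios of values under 0.1 FPKM. Of 1745 such genes, 70.2% stood in whole-number proportions (numbers up to 40, tolerance 0.05%), and 0.0573% did after random noise of 5%. Absolute depth used transcript lengths from GENCODE lifted to GRCh37, which matched 96.1% of 13078 rows at 1 FPKM or above, so fragments are estimates.

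The members, the 171 other gene entries in 14 lists and the lists themselves were chosen with earlier results of these data known. Named from each list are the gene with the highest control level, every gene past 1.5-fold in either comparison, and the largest ratio in each direction for ZSCAN5A. VIMP was matched under the symbol SELS. Promoters came from RefSeq, and all 10 members had one. Alternatives covered the expression limit, fold limit, pseudocount, scaling, rows that share a symbol, length and GC content, single siRNAs, and limma 3.58.1 in R 4.3.3 on log2(FPKM + 1). The fold rule, the depth estimate and limma were also run on simulated libraries with planted changes larger than any seen in the members. That run does not show how the rules behave for differences of the size described here. Analyses used Python 3.11.15, NumPy 2.4.6, pandas 2.3.3, SciPy 1.17.1 and matplotlib 3.10.9.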

Additional observations from a re-analysis of the deposited data

Results flagged for a closer look

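ATF4 and DDIT3 were picked out because both ZSCAN5A siRNA libraries lay above the control and the library labelled ZSCAN5B knockdown lay below it. This rule used the direction only, with no limit on size, and all 3 ratios share the control library. The share of all genes that meet the rule was not counted, so the pick does not set these genes apart. For ATF4, the log2 ratio of the ZSCAN5A siRNAs exceeded that of si1 by 0.24, with single log2 ratios of 0.05 (si4), 0.10 (si5) and -0.17 (si1). For DDIT3 the difference was 0.41, with single log2 ratios of 0.14, 0.28 and -0.20. The difference was not tested, since si1 and the control are 1 library each. After the correction for transcript length and GC content, the log2 ratios for ZSCAN5A and si1 were -0.01 and -0.26 for ATF4, and 0.03 and -0.41 for DDIT3. No group held 4 or more libraries, so single libraries could not be examined as outliers.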

How the results depend on the processing

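The count of members past the limit stayed at 0 for ZSCAN5A and for si1 under every alternative run. For ZSCAN5A, the members' median log2 ratio ranged from -0.066 (si4 alone) to 0.107 (si5 alone) when 1 siRNA was left out, so its sign rested on si5. For si5 against si1, a pair added after seeing the data, 0 members were past a 2-fold limit. The members' median log2 ratio there was 0.33 under upper-quartile scaling, where that of all genes was 0.04. For si5 against si4, 1 member (CHAC1) was past 1.5-fold under median-ratio scaling, upper-quartile scaling and the correction for length and GC content. In that order, 231 and 113, 297 and 102, and 220 and 104 of all genes were higher and lower by that much. The members' median log2 ratio there was 0.24 under upper-quartile scaling, where that of all genes was 0.05. limma called 0 members for either target at an adjusted p under 0.05, with 0 at an unadjusted p under 0.05, where 10 and 15 of 13078 genes had an adjusted p and 1607 and 1297 an unadjusted p under 0.05. That fit has 1 residual degree of freedom and assumes that the lone si1 and control libraries vary like si4 and si5. A limit of 2-fold, no expression limit, a pseudocount of 1 FPKM and the correction for length and GC content moved the count of all genes past the limit for ZSCAN5A by more than 1.5 times: 88 higher and 404 lower became 23 and 50, 763 and 1749, 41 and 158, and 81 and 233. At 5 FPKM they were 43 and 162, and without si5 (si4 alone) 149 and 673. For si1, 109 and 409 became 25 and 42, 888 and 1476, 60 and 150, and 92 and 264 under the same 4, and 56 and 196 at 5 FPKM. For si5 against si4, 200 and 124 became 41 and 48 at 2-fold, 1213 and 929 with no expression limit, 102 and 65 with a pseudocount of 1 FPKM and 96 and 55 at 5 FPKM, and for si5 against si1, 103 and 106 became 20 and 19, 820 and 1388, 55 and 41, and 52 and 51. No paired analysis was possible because the siRNA and control groups do not share 2 replicate numbers. The cause of these shifts was not tested. Absolute depth rests on annotated lengths, and 1 library per siRNA limits every comparison.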

Other observations

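Outside the stress response proper, 14 genes through which SESN2 and DDIT4 act on mTORC1 gave a median log2 ratio to the control of -0.08 for ZSCAN5A and -0.02 for si1. None was past 1.5-fold, where 3.79% and 4.01% of all genes were. SEC13 was the most abundant, at 63.9 FPKM in the control. TSC1 and TSC2, which encode the complex that REDD1 acts through, were at 5.36 and 8.82 FPKM with si4, 5.23 and 8.58 FPKM with si5, 5.21 and 8.20 FPKM with si1, and 6.76 and 11.0 FPKM in the control. TSC1 had the lowest ratio for ZSCAN5A (0.783-fold) and SEH1L the highest (1.11-fold). TSC2 is named outside the rule for gene names.

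Of 16 immediate-early and short-lived mRNAs, 14 could be compared for ZSCAN5A, and 11 of them were below the control (53.3% of all genes were), with a median log2 ratio of -0.13. BTG2, an antiproliferative p53 target, was the only gene of this list past 1.5-fold there, where 3.11% of all genes were lower by that much. It was at 31.0 FPKM with si4, 29.3 FPKM with si5, 36.3 FPKM with si1 and 45.7 FPKM in the control. JUN was the most abundant (63.7 FPKM in the control), and JUNB had the highest ratio for ZSCAN5A (1.04-fold). Of the 14, 8 were highest in the control, where 36.2% of all genes were. Of the 5 HEK-293 markers, only PAX2 was past 1.5-fold, below the control for ZSCAN5A (0.518-fold) and for si1 (0.525-fold). By that much, 3.11% and 3.17% of all genes were lower. The PAX2 control value, 1.16 FPKM, lay close to the expression limit of 1 FPKM. VIM was at 1.07-fold for ZSCAN5A.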
